A study of Mus musculus with 12 samples.

Results

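Basement membrane collagens and laminins were examined in sorted lung epithelial cells as 9 genes, Col4a1, Col4a2, Col4a3, Col4a4, Lama3, Lama5, Lamb2, Lamb3 and Lamc1, chosen by gene symbol out of 23238 symbols in the deposited count files. The basement membrane is the thin sheet of matrix on which the alveolar epithelium rests, and in much of the alveolar wall the epithelium and the capillary share a single fused sheet. Its collagen IV is built of trimers, and Col4a1 and Col4a2 encode the chains of the widespread trimer, whereas Col4a3 and Col4a4 encode chains of a more restricted trimer known from the kidney glomerulus and the lung. Laminins are trimers of an α, a β and a γ chain. Lama3 and Lamb3 encode chains of the epithelial anchoring laminin, Lama5 encodes the α chain found in most mature epithelial and endothelial basement membranes, and Lamb2 and Lamc1 encode a β and a γ chain that can join it.

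The libraries came from 4 groups of 3 mice, with 1 mouse per library. The protocol gives 8-week-old mice and tamoxifen at 10 mg/kg before bleomycin, a DNA-breaking drug that injures the lung. Con mice received PBS into the trachea and BLM mice received 4 mg/kg of bleomycin, and the labels give both as negative controls for the p300 knockout. KO mice (PBS) and KOBLM mice (4 mg/kg of bleomycin) carried a p300 gene, Ep300, with loxP sites around exon 9, recombined by a tamoxifen-dependent Cre (CreERT2) driven by the Spc promoter, which is active in alveolar type II (ATII) cells. The sources describe the Con mice in different ways, as wild type, as C57BL/6 and as floxed mice without recombination, and conflict on whether Con and BLM mice received tamoxifen or its vehicle. Cells were sorted as CD74-positive and EpCAM-positive, and the libraries read the 3′ end of polyadenylated RNA.

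Total counts per library ran from 7005005 to 11153154, and 3 counts, used as the detection floor, corresponded to 0.269 to 0.428 CPM (counts divided by the library total and scaled to 1000000). This floor covers counting error only. Ep300 itself was 109 ± 53.5 CPM in Con, 85.4 ± 45.4 CPM in BLM, 143 ± 46.4 CPM in KO and 112 ± 62.3 CPM in KOBLM (SD, n = 3 each), so it was not lower in the libraries labelled KO and KOBLM. The 3′ reads lie far from exon 9 and do not test its loss, and every genotype direction below rests on the labels. The study reported that it checked the p300 deletion by quantitative RT-PCR in primary ATII cells and by co-staining of p300 with cell markers in the lungs. BLM 3 stood apart from the rest, with the fewest genes detected (6847), and its log2 CPM correlated with those of BLM 1 and BLM 2 at Spearman coefficients of 0.473 and 0.478 across genes, compared with 0.693 to 0.889 for the other pairs within a group. A list of 13 pluripotent stem cell markers summed to 2690.9 CPM of the library total in BLM 3 and to 0.65 to 18.73 CPM in the other libraries. The 12 ATII markers summed to 184 to 2193 CPM and the 10 macrophage markers to 861 to 37806 CPM, and the macrophage sum was the larger one in all 12 libraries. In these bulk samples, fewer cells of a type and less RNA per cell cannot be told apart.

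The 4 collagen IV genes stand in 2 head-to-head pairs, which is why their start regions are shown. On GRCm38, Col4a1 lies on chromosome 8 from 11198423 to 11312826 on the minus strand and Col4a2 from 11312805 to 11449287 on the plus strand, so that their first exons overlap. Col4a4 lies on chromosome 1 from 82448423 to 82586849 on the minus strand and Col4a3 from 82586921 to 82722059 on the plus strand, and the bases between them lie in no annotated exon. Of the laminins, Lamc1 lies on chromosome 1 from 153218922 to 153332786 (minus strand), Lamb3 on chromosome 1 from 193207699 to 193343878 (plus), Lama5 on chromosome 2 from 180176373 to 180225859 (minus) and Lamb2 on chromosome 9 from 108479736 to 108490530 (plus). Both sequences are given 5′ to 3′ on the plus strand, from the RefSeq promoter windows of GRCm38.p6, with the GC box (GGGCGG, either strand) in capitals.
Col4a1 and Col4a2, chr8:11312805-11312826: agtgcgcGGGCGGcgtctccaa
Col4a4 to Col4a3, chr1:82586850-82586920: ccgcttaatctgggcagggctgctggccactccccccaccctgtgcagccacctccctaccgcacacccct
The 22 shared bases of Col4a1 and Col4a2 hold 72.7% G and C, and the 71 bases between Col4a4 and Col4a3 hold 69.0%. Windows from 250 bases before to 50 bases after a start were found for 6 of the 9 genes. A CCAAT motif, searched on both strands, was present in the windows of Col4a1 and Col4a2, and 37.4% of all 32851 windows held one. The GC box was present in the windows of Col4a1, Col4a2 and Lama5, and in 35.7% of all windows. The TATAAA motif, the C/EBP motif TTGCNNAA and the AP-1 motif TGANTCA were found in none of these members' windows and in 13.6%, 10.8% and 7.8% of all windows.

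Detection separated the genes before any comparison of groups. Col4a1 and Col4a2 were above 3 counts in all 12 libraries, Lamc1 in 9, Lamb2 in 8, Lama5 in 7, Col4a4 in 6, Lamb3 in 3, and Col4a3 and Lama3 in 2 each. Of the 108 values (9 genes in 12 libraries), 44 were 0. The number of these genes above 3 counts was 5, 9 and 4 in Con 1 to 3, 7, 6 and 3 in BLM, 6, 5 and 2 in KO, and 7, 2 and 5 in KOBLM. The 4 libraries with the fewest genes detected of any kind, BLM 3 (6847), KO 3 (8790), KOBLM 2 (9018) and Con 3 (10246), were also the 4 with the fewest of the 9. In the same order their total counts were 11153154, 10807871, 10381596 and 10610467, the highest of the 12 libraries. A value of 0 is an absence of reads in that library, and the part that library complexity had in it was not tested.

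**Figure D1:**
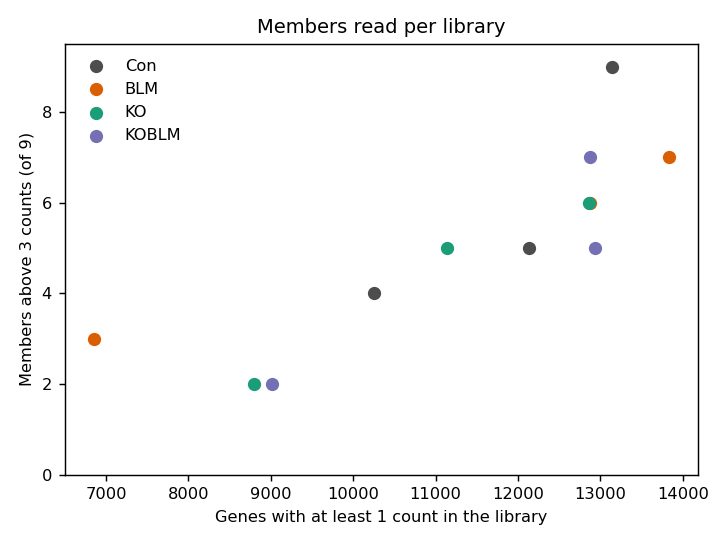
Number of the 9 basement membrane genes above 3 counts (vertical axis) against all genes detected, at 1 count or more (horizontal axis), with 1 point per library coloured by group. Con 2 is at 9 genes, and the 4 libraries with the fewest genes detected (6847 to 10246) are at 2 to 4.

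Levels below are CPM scaled by the trimmed mean of M values (TMM), and the counts come from the 3′ ends of transcripts. Differences between groups were tested by edgeR's quasi-likelihood method in 1 model of the 4 groups over the 13054 genes that passed its low-count filter. The study's threshold was used, so a gene counts as called where the fold exceeds 1.5 and the edgeR p before adjustment is under 0.05. The adjusted p (Benjamini-Hochberg) was 1 for every member in every comparison. Exact permutation tests of log2 CPM, all two-sided, stand beside the edgeR tests, and 3 mice against 3 cannot give a p below 0.1. Of the 9 genes, 7 passed the filter, and Col4a3 and Lama3 did not.

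Col4a1, a chain of the widespread collagen IV, was 28.1, 102 and 104 CPM in Con 1 to 3 and 210, 105 and 22.1 CPM in BLM 1 to 3. It was 52.6, 20.9 and 8.57 CPM in KO and 239, 30.7 and 82.4 CPM in KOBLM. The groups overlapped in each pairwise comparison, with KO at the low end and the highest values in BLM 1 and KOBLM 1. The difference closest to the threshold was KOBLM against KO, a log2 fold change of 2.10 (SE 1.0, edgeR p = 0.0547, exact permutation p = 0.2). It was called with DESeq2 (2.13), DESeq2 size factors (2.13), library size alone (2.12), no filter (2.11) and only the groups compared (2.11). It was also called without KO 1 (3.0) and without KOBLM 2 (2.56), and not without KO 2, KO 3, KOBLM 1 or KOBLM 3, with a lowest value of 1.04 without KOBLM 1. In Con, bleomycin went with a log2 fold change of 0.52 (SE 0.97, exact permutation p = 0.8), and the difference between the bleomycin effects in the 2 genotypes, tested as an interaction, was 1.58 (SE 1.37) and not called. KO compared with Con gave -1.51 (SE 0.99, edgeR p = 0.147, exact permutation p = 0.2).

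Col4a2, its partner in the trimer, was 27.8, 50.2 and 43.4 CPM in Con and 247, 174 and 0.289 CPM in BLM. It was 28.9, 42.3 and 69.8 CPM in KO and 237, 26.9 and 75.7 CPM in KOBLM. BLM 1 and BLM 2 lay above all Con mice, and BLM 3, at 4 counts, lay below all other libraries. BLM compared with Con gave a log2 fold change of 1.80 (SE 1.30, edgeR p = 0.187, exact permutation p = 1). Without BLM 3 it was 2.38 and past the threshold, in a fit that called 767 of 14084 tested genes. KOBLM compared with KO gave 1.27 (SE 1.28, exact permutation p = 0.5), KO compared with Con 0.22 (SE 1.26, exact permutation p = 0.8) and KOBLM compared with BLM -0.31 (SE 1.26, exact permutation p = 0.9).

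**Figure D2:**
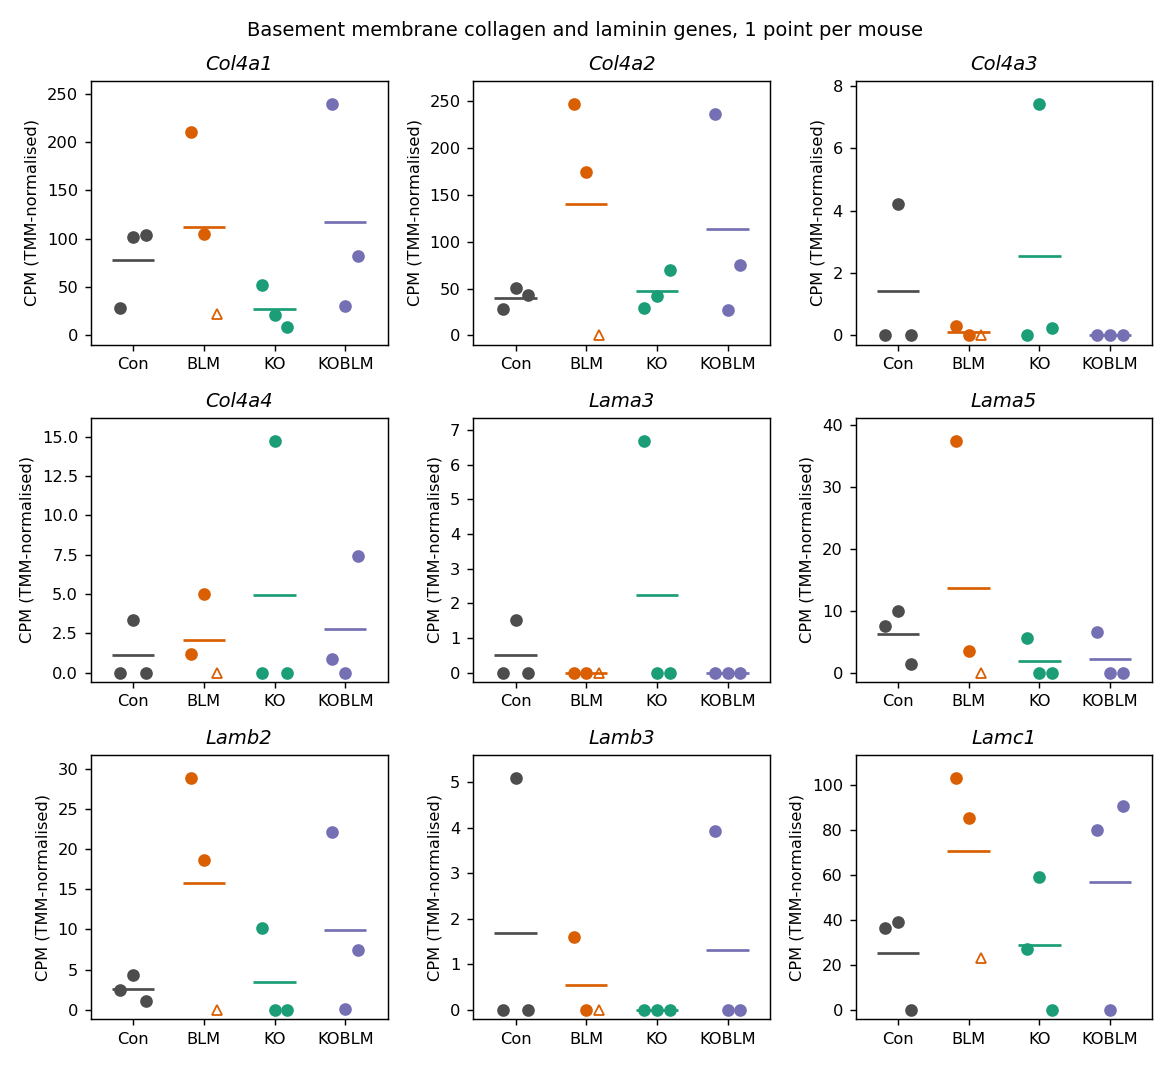
TMM-normalised CPM of each of the 9 genes (vertical axes, each with its own scale) in Con, BLM, KO and KOBLM, with 1 point per mouse and a bar at the group mean, and with BLM 3 as an open triangle. Groups overlap for all 9 genes, and BLM 1 and KOBLM 1 hold the highest values of Col4a1 and Col4a2.

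The paired genes Col4a1 and Col4a2 were compared across the libraries, and their correlation did not pass an adjusted p of 0.05. Over the 12 libraries, log2 CPM (prior count 2) gave Pearson's r = 0.545 (permutation p = 0.0574, adjusted 0.0861 over the 3 chain pairs) and Spearman's rho = 0.678 (permutation p = 0.019, adjusted 0.0571). Without KO 3 and KOBLM 1, the 2 libraries farthest from the median of Col4a1, r was 0.692, and for deviations from the group means it was 0.676. The log2 ratio of Col4a1 to Col4a2 counts was 0.01, 0.19 and 0.12 in KOBLM and 0.02, 1.03 and 1.26 in Con. It was -0.24, -0.73 and 6.26 in BLM and 0.86, -1.02 and -3.02 in KO, so that BLM 3 and KO 3 lay farthest from an even ratio, in opposite directions. Within groups, the SD of log2 CPM was 1.39 for Col4a1 and 2.66 for Col4a2, compared with medians of 1.01 and 0.99 for genes of a like mean.

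**Figure D3:**
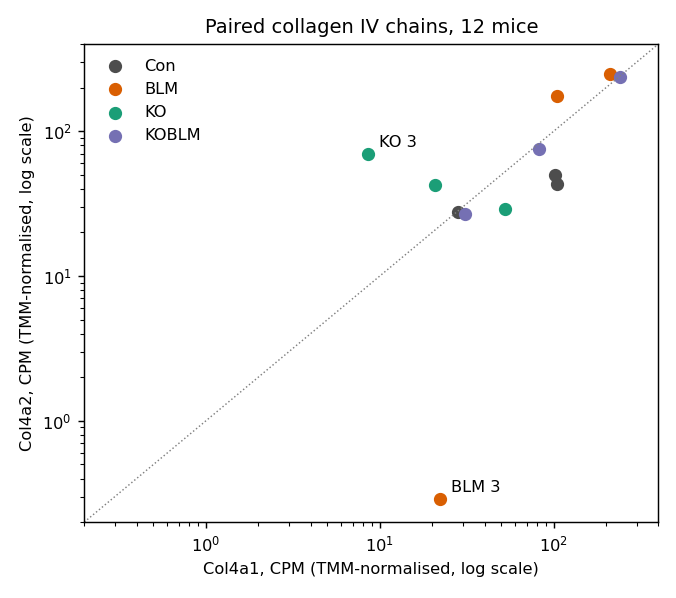
Col4a2 against Col4a1 in TMM-normalised CPM (both axes logarithmic), with 1 point per mouse coloured by group and a dotted line where both are equal. KOBLM lies along the line, and BLM 3 (0.289 CPM of Col4a2) and KO 3 (8.57 CPM of Col4a1) lie farthest from it.

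Markers of cells that also make collagen IV were read in the same libraries. The 10 fibroblast markers summed to 180 to 576 CPM of the library total in Con and 1134 to 1896 CPM in BLM, without overlap. In BLM 3 the sum came from Col1a1, Col1a2 and Col3a1 alone (545, 459 and 130 CPM), with the other 7 markers at 0. The same 3 genes also made up most of the sum in BLM 1 (372, 873 and 448 CPM) and BLM 2 (199, 571 and 322 CPM). Dcn was above all Con mice in BLM 1 and BLM 2. Inmt went the other way, at 79.45, 134.31 and 100 CPM in Con and 41.68, 44.06 and 0 CPM in BLM. Mfap4 overlapped, at 5.62, 11.23 and 18.47 CPM in Con and 8.42, 7.39 and 0 CPM in BLM, and so did Col13a1 and Pdgfra. The 10 markers together summed to 84.2 to 436 CPM in KO and 168 to 741 CPM in KOBLM. Tcf21 was at 0 in 11 of the 12 libraries, and Lum was at 0 in all libraries but 1. The 12 endothelial markers summed to 746 to 1335 CPM in Con, 277 to 1004 CPM in BLM, 84.5 to 588 CPM in KO and 384 to 2151 CPM in KOBLM, and KOBLM 1, with the highest Col4a1, also had the highest endothelial sum. The 8 pericyte and smooth muscle markers summed to 22.2 to 37.5 CPM in Con, 61.8 to 117 CPM in BLM, 23.4 to 45.5 CPM in KO and 40.2 to 169 CPM in KOBLM. Their part in the collagen IV levels was not tested.

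Col4a3 and Col4a4, the chains of the restricted trimer, were read in few mice. Col4a3 was read in Con 2 (39 counts, 4.22 CPM), KO 2 (45 counts, 7.41 CPM), KO 3 (3 counts) and BLM 1 (2 counts), and was at 0 in the other 8 libraries, all 3 KOBLM mice included. With the floor of 3 counts per library standing for the lower group, the mean of Col4a3 in BLM was at least 3.86-fold lower than in Con. The same bound for KOBLM was at least 7.18-fold lower than KO, and each rests on 1 mouse, Con 2 or KO 2. Col4a4 was 0, 3.35 and 0 CPM in Con, 1.17, 4.99 and 0 CPM in BLM, 0, 14.7 and 0 CPM in KO, and 0.84, 0 and 7.4 CPM in KOBLM. No group had it in all 3 mice, and its SEs of 3.30 to 3.43 exceeded its log2 fold changes, which were 0.86 in BLM against Con, 2.11 in KO against Con, 0.42 in KOBLM against BLM and -0.83 in KOBLM against KO. Con 2 and KO 2 were the only mice with both genes above 3 counts. Across the 12 libraries r was 0.585 (permutation p = 0.038, adjusted 0.0861) and rho was 0.464 (permutation p = 0.119, adjusted 0.178), and without Con 2 and KO 2 r was -0.016, so the relation rests on those 2 mice.

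Among the laminins, Lamc1 was read most often. This γ chain was 36.2, 39.1 and 0 CPM in Con and 103, 85.5 and 23.2 CPM in BLM. It was 27.1, 59 and 0 CPM in KO and 80.1, 0 and 90.9 CPM in KOBLM. The 3 libraries at 0 were Con 3, KO 3 and KOBLM 2, whereas genes of a like mean had a median of 0 such libraries. BLM compared with Con gave a log2 fold change of 1.49 (SE 2.12, edgeR p = 0.491, exact permutation p = 0.3), and KOBLM compared with KO gave 0.99 (SE 2.09, exact permutation p = 0.6). In a fit of the 2 libraries per group with the most genes detected, chosen after the data were seen, BLM against Con was 1.30 and past the threshold. That comparison called 1370 of 13841 tested genes. The fit left out Con 3, KO 3 and KOBLM 2, the 3 libraries at 0, and BLM 3, the lowest BLM value. The choice thus removed most of the spread of Lamc1 within groups, and the call cannot be read apart from it.

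Lamb2, a β chain that can replace the one encoded by Lamb1, was 2.42, 4.33 and 1.06 CPM in Con and 28.8, 18.6 and 0 CPM in BLM. It was 10.2, 0 and 0 CPM in KO and 22.1, 0.0944 and 7.4 CPM in KOBLM. BLM 1 and BLM 2 were above all Con mice and BLM 3 was below them. The log2 fold change was 2.60 in BLM against Con (SE 2.82, exact permutation p = 0.7) and 1.54 in KOBLM against KO (SE 2.72, exact permutation p = 0.3). Without KO 1, the only KO mouse with Lamb2 counts, KOBLM against KO was called. KO was then at 0, so the direction of that call was fixed and its size depends on the fit.

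Lama5, the α chain of mature basement membranes, was 7.51, 9.95 and 1.32 CPM in Con and 37.3, 3.52 and 0 CPM in BLM. It was above 0 in 1 KO mouse, KO 1 at 5.62 CPM, and in 1 KOBLM mouse, KOBLM 1 at 6.58 CPM. Con was thus the only group with Lama5 in all 3 mice, and the groups still overlapped. KO compared with Con gave a log2 fold change of -1.73 (SE 3.06, edgeR p = 0.581, exact permutation p = 0.2) and KOBLM compared with BLM gave -2.63 (SE 3.17, edgeR p = 0.42, exact permutation p = 0.7). BLM compared with Con was 1.12 (SE 3.02, exact permutation p = 0.8), with 1 mouse, BLM 1, above the range of Con.

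Lama3 and Lamb3, the chains of the epithelial anchoring laminin, were nearly unread. Lama3 was read in Con 2 (14 counts, 1.51 CPM) and KO 1 (63 counts, 6.68 CPM). Lamb3 was read in Con 2 (47 counts, 5.08 CPM), BLM 1 (11 counts, 1.6 CPM) and KOBLM 1 (28 counts, 3.92 CPM). Con 2, the mouse in which all 9 genes were above 3 counts, was the only one with both. On group means and against the same floor, KO lay at least 4.79-fold lower than Con for Lamb3 and KOBLM at least 3.69-fold higher than KO (exact permutation p = 1 for both). For Lama3, BLM lay at least 1.38-fold lower than Con, and KOBLM lay at least 6.26-fold lower than KO, and each of these bounds rests on 1 mouse. The chains gave r = 0.181 (permutation p = 0.866) and rho = 0.289 (permutation p = 0.25, adjusted 0.25) over the 12 libraries, of which 10 and 9 were at 0.

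**Figure D4:**
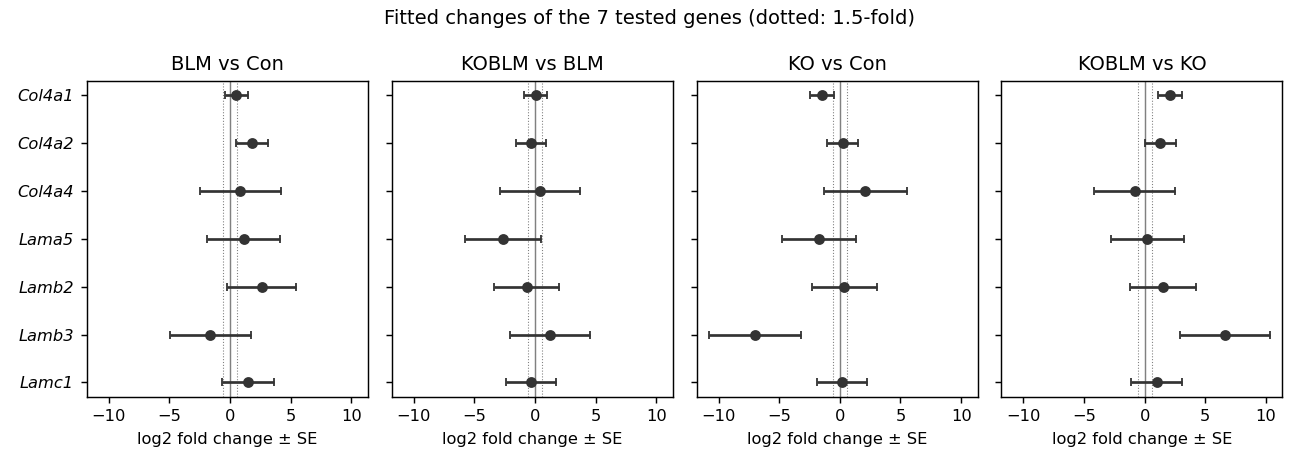
Log2 fold change (horizontal axes) of the 7 tested genes in the 4 pairwise comparisons, as edgeR estimates (points) with 1 SE (bars) and dotted lines at a fold of 1.5. Col4a1 has the shortest bars (SE 0.96 to 1.0), and the Lamb3 values at -6.96 and 6.59 are set against KO mice that were all at 0.

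Over the members together, 0 of 7 were called in each comparison, also at an unadjusted p under 0.05 without the fold. The share of all tested genes called was 4.27% for BLM against Con, 3.16% for KOBLM against BLM, 1.44% for KO against Con and 1.69% for KOBLM against KO. It was 4.47% for the bleomycin effect averaged over the genotypes, 2.90% for the genotype effect averaged over the treatments and 2.82% for the interaction. At these shares a count of 0 among 7 genes is near the background. At an adjusted p under 0.05, edgeR called 0 of the 13054 genes in each comparison, so the calls named here, list genes included, rest on the unadjusted threshold. The unadjusted threshold called 188 to 584 genes with edgeR and 374 to 947 with DESeq2. DESeq2 called 1 member, Col4a1 in KOBLM against KO (log2 fold change 2.13), and 0 in the other 6 comparisons. Groups did not separate for any of the 9 genes in a pairwise comparison, while 16.0%, 10.8%, 9.09% and 6.87% of all tested genes had groups without overlap in the same 4 comparisons.

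Medians over the 7 tested genes are given as a description, beside those of all tested genes. The median log2 fold change of the 7 genes was 1.12 for BLM against Con (6 of 7 above 0), beside -0.08 over all tested genes, and 1.27 for KOBLM against KO (6 of 7 above 0), beside 0.08. For the averaged bleomycin effect it was 1.31 with 7 of 7 above 0, beside 0.03 with 6703 of 13054 above 0 over all genes. Of these 7, Col4a4 was at 0.02 (SE 2.08) and turned to -0.04 with DESeq2 and -0.02 with no filter, and Lama5 turned to -1.07 with the replicate block. Lamb3 was at 2.47 (SE 1.91), from -1.65 in BLM against Con and 6.59 in KOBLM against KO, where KO was at 0 and the direction was fixed. Without KOBLM 1, Lama5 was at -3.03 and Lamb3 at -0.83 in the averaged effect. Within this comparison Col4a1 was at 1.31 (SE 0.69), Col4a2 at 1.53 (SE 0.91) and Lamc1 at 1.24 (SE 1.49), none of them called. Without BLM 3, Col4a1 was at 1.56 and Col4a2 at 1.82, and both passed the threshold, beside 1009 of 14084 genes. Col4a1 also passed without KO 1 (1.76) and without KOBLM 2 (1.54). Lamb2 passed without KO 1, where the other KO mice were at 0. Its direction between KO and KOBLM was then fixed, and the size is set by the fit. With the 2 libraries per group with the most genes detected, Col4a1 (1.68), Col4a2 (2.26) and Lamc1 (1.14) passed, beside 1423 of 13841 genes. That fit, chosen after the data were seen, left out every library with Lamc1 at 0. It also left out BLM 3, the library with the lowest Col4a2. Col4a3 and Lama3 were at or under 3 counts in all 6 bleomycin-treated mice. They passed the filter only in fits that left out a library, through the PBS mice in which they were read, so their calls in such fits carry a direction fixed by the filter and are not given. The medians were -0.31 for KOBLM against BLM and 0.19 for KO against Con, with 3 and 4 of 7 above 0, and the averaged genotype effect had a median of -0.15, beside -0.01 over all genes.

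A list of 65 further genes of the basement membrane, its receptors and the enzymes that process collagen IV was read beside them, and 50 passed the filter. In BLM against Con, 5 of 50 were called beside the 4.27% of all tested genes, 1 higher and 4 lower. Called or not, 29 of the 50 had a log2 fold change above 0, with a median of 0.51 beside -0.08 over all tested genes. Groups did not overlap for 10 list genes that were higher and 7 that were lower, beside 16.0% of all tested genes. Sparc, a matrix protein that binds collagen IV, was 19.2, 94.8 and 142 CPM in Con and 370, 269 and 757 CPM in BLM, and rose by a log2 fold change of 2.45 (SE 0.86, adjusted p = 0.995). Colgalt1, which adds galactose to hydroxylysine of collagens, was 499, 611 and 347 CPM in Con and 128, 166 and 57.5 CPM in BLM, a log2 fold change of -2.05 (SE 0.49, adjusted p = 0.995). Neither gene's groups overlapped. Plod3, a lysyl hydroxylase and glycosyltransferase of collagens, was 198 ± 13.2 CPM in Con and 77.1 ± 8.71 CPM in BLM (SD, 3 mice each) and fell by 1.36 on the log2 scale (SE 0.51, adjusted p = 0.995). The matrix receptor Cd44 was 3310 ± 411 CPM in Con and 707 ± 622 CPM in BLM (SD, 3 mice each) and fell by 2.23 on the log2 scale (SE 0.77, adjusted p = 0.995). Egfl6 was at 4.96, 26.6 and 0 CPM in Con and at 0 in all 3 BLM mice, at least 28.9-fold lower on group means. Egfl6 passed the filter through PBS mice, so the direction of this call was fixed. The calls of Sparc, Colgalt1 and Cd44 held without each of the 6 libraries in turn. Without BLM 3 the values were 1.90 for Sparc, -1.73 for Colgalt1 and -1.68 for Cd44, without BLM 2 Cd44 was at -3.0, and without Con 3 Sparc was at 3.02. The call of Plod3 was lost without BLM 1 (-1.29), BLM 2 (-1.34) or Con 1 (-1.31), and that of Egfl6 without any of these, BLM 3 or Con 2. The fibroblast marker sum, made up of fibrillar collagen genes alone in BLM 3, was higher in BLM than in Con as given above. The 10 macrophage markers summed to 10205 to 21463 CPM in Con and 861 to 7293 CPM in BLM, and Siglecf and Adgre1 were at 0 in BLM 3. Their part in these 5 changes was not tested.

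In KOBLM against BLM, 5 of 50 were called beside the 3.16% of all tested genes, 3 higher and 2 lower. Called or not, 22 of the 50 had a log2 fold change above 0, with a median of -0.31 beside 0.1 over all tested genes. Groups did not overlap for 5 list genes that were higher and 6 that were lower, beside 10.8% of all tested genes. Colgalt1 was 389, 478 and 408 CPM in KOBLM and rose compared with BLM by a log2 fold change of 1.86 (SE 0.48, adjusted p = 1), with groups that did not overlap and a call in each of the 6 fits that left out a library. Cd44 was 2200 ± 347 CPM in KOBLM (SD, n = 3) and higher than in BLM by 1.64 (SE 0.75, adjusted p = 1), a call lost without BLM 1, KOBLM 1, KOBLM 2 or KOBLM 3 (1.51 to 1.74). Fbln2, which encodes the matrix protein fibulin-2, was 49.2, 15.7 and 81.9 CPM in BLM and 0 in all 3 KOBLM mice, at least 138-fold lower on group means (adjusted p = 1). Lamb1, the β chain whose place Lamb2 can take, was 47.8, 11 and 212 CPM in BLM and 2.52, 0 and 4.24 CPM in KOBLM (log2 fold change -5.32, adjusted p = 1). That call was lost without each of these 6 libraries other than BLM 2 (-6.16 to -3.70). Lama1 was at 0 in BLM and at 8.4, 0 and 2.79 CPM in KOBLM, and its call was lost without each library other than KOBLM 2. With KOBLM at 0 for Fbln2 and BLM at 0 for Lama1, the direction of each of these calls was fixed. The macrophage markers summed to 7290 to 17964 CPM in KOBLM, compared with the BLM range above, and the fibroblast sums of KOBLM lay below those of BLM. Their part was not tested.

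In KO against Con and in KOBLM against KO, 0 of 50 list genes were called by edgeR, beside 1.44% and 1.69% of all tested genes. DESeq2 called 4 of the list in KOBLM against KO, beside 460 of all 13054 tested genes. The averaged bleomycin effect called 7 of 50, beside the 4.47% of all tested genes, with Sparc (2.08), the heparan sulfate proteoglycan Sdc1 (2.98), Col18a1 (4.75) and Vwa1 (4.39) higher and Colgalt1 (-1.05), Cd44 (-1.27) and Egfl6 lower on the log2 scale. Egfl6 was at 0 in all 6 bleomycin-treated mice and passed the filter through PBS mice, so its direction was fixed and the size of its fitted change is not given. Sdc1 was 2.29, 0.541 and 14.1 CPM in Con, 18.9, 23 and 35.4 CPM in BLM, 2.65, 6.42 and 0 CPM in KO and 54.8, 28.8 and 40.7 CPM in KOBLM. For Sdc1, every bleomycin-treated mouse lay above every PBS mouse of its genotype. Of the other 6 calls, Sparc and Colgalt1 held in all 12 fits that left out a library, Cd44 in 10, Sdc1 in 7, Col18a1 in 5 and Vwa1 in 4. Sparc was at 1.42 to 2.36 in these fits. Cd44 lost its call without KO 1 (-1.10) or KOBLM 3 (-1.22), and Sdc1 without Con 1, Con 2, KO 1, KOBLM 1 or KOBLM 3 (2.71 to 2.99). Col18a1 lost it without BLM 1, BLM 3, Con 1, Con 3, KO 2, KO 3 or KOBLM 1 (3.0 to 4.86), and Vwa1 held only without BLM 1, Con 2, KO 1 or KOBLM 3 (3.67 to 4.49 in the other fits). The averaged genotype effect called 3 of 50, beside the 2.90% of all tested genes. These were Fbln2 (-7.85, at a size set by the fit), Colgalt1 (0.86, lost without Con 3 at 0.77) and P4ha2 (-6.49, held only without Con 1, Con 2, BLM 2, BLM 3 or KO 1, and at -6.50 to -4.75 in the other fits). Fbln2 and P4ha2 were at 0 in all 3 KOBLM mice, so their direction under bleomycin was fixed and both sizes are set by the fit. The macrophage sum was 8931 to 37806 CPM in KO, and its part in these genes was not tested.

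**Figure D5:**
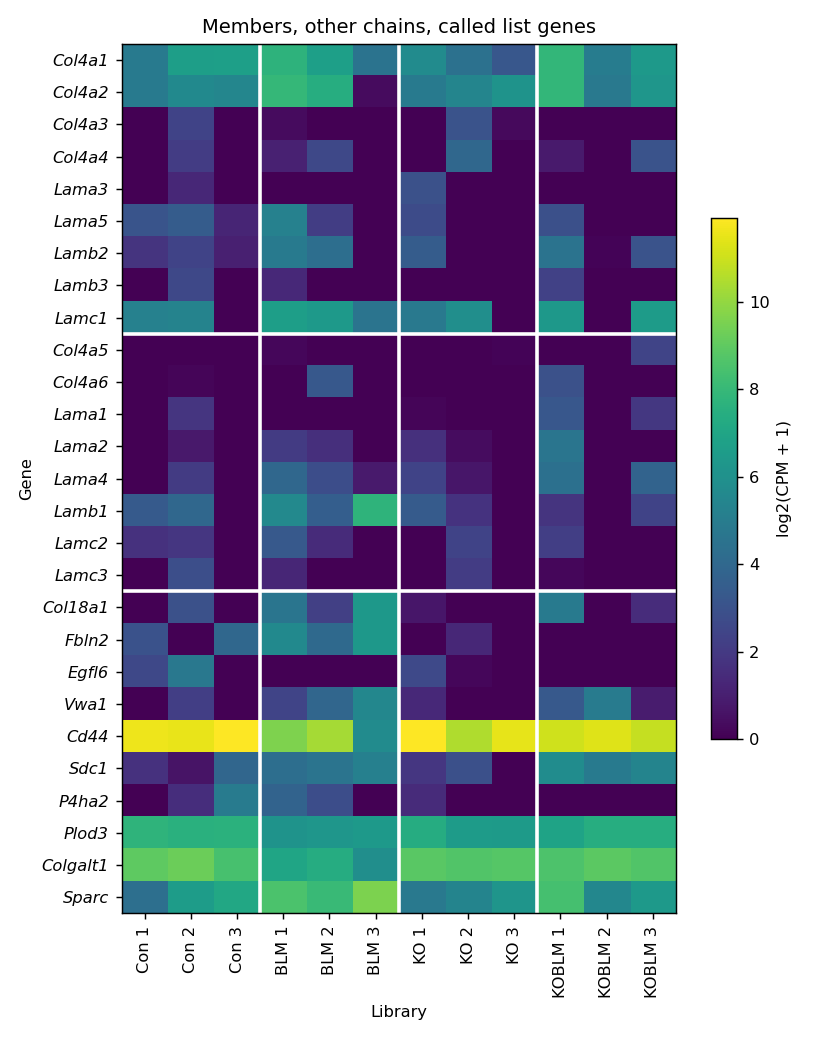
Log2(CPM + 1) in each library (columns, by group) of the 9 members (top), the other collagen IV and laminin chains (middle) and the list genes called in some comparison (bottom), with brighter colours for higher values. Col4a1, Colgalt1, Plod3, Cd44 and Sparc are above 0 in all 12 libraries, whereas Col4a3, Lama3 and Lamb3 are at 0 in 8 to 10.

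Genes with the most similar pattern over the 12 libraries were listed by Pearson's r of log2 CPM, as a description. For Col4a1 they were Ttn (0.935), Zbtb16 (0.928) and Ackr3 (0.915), with values of 0.935, 0.924 and 0.907 without BLM 3. For Lama5 they were 4933428G20Rik (0.962), Mrvi1 (0.946) and 2010016I18Rik (0.932). For Lamb3 they were Sh2d2a (0.998), 0610040F04Rik (0.987) and Cnksr2 (0.977), and with Lamb3 above 3 counts in only 3 libraries, these values rest on those 3.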

How the data were processed

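RNA was measured in 12 libraries, 1 per mouse, in 4 groups of 3 taken from the sample labels. The values are those the authors deposited as raw counts of reads per gene symbol, from QuantSeq 3′ libraries. The submitters' processing notes name Bowtie2, edgeR and mm10, and the counting program, annotation and versions are not given in the sources used here. The 79 of 23282 entries that repeat 35 symbols were added up by symbol, giving 23238 symbols (17480 with a count).

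Low counts were removed by edgeR 4.0.16 (filterByExpr by group, at its minimum of 10 counts and 15 in total), and libraries were scaled by TMM (factors 0.84 to 1.26), and 13054 were fitted in 1 quasi-likelihood model of the 4 groups with 8 residual degrees of freedom (common dispersion 2.08). All tests were two-sided. Chain pairs were compared by Pearson's and Spearman's coefficients of log2 CPM (prior count 2) with 100000 permutations. Steps were tested on simulated data. Same-numbered libraries did not deviate together (r -0.117 to 0.096), so the replicate number was not a block. Alternatives were DESeq2 1.42.0, its size factors, library size alone, no low-count filter, only the compared groups, the replicate number as a block, an adjusted p, a prior count of 0.5 and the omission of each library. The fit with 2 libraries per group was added after seeing the data and left out Con 3, BLM 3, KO 3 and KOBLM 2. R 4.3.3, Python 3.11.15, scipy 1.17.1, pandas 2.3.3, numpy 2.4.6 and matplotlib 3.10.9 were used. Gene positions come from GENCODE M21. Named list genes were those called in a comparison, at most 8 by smallest p. The members, gene lists and tests were chosen with earlier results of these data known.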

Additional observations from a re-analysis of the deposited data

Results flagged for a closer look

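For 4 genes of the wider basement membrane list, the effect of bleomycin differed between the genotypes by edgeR's interaction test at an unadjusted p under 0.05, and the adjusted p was 1 for each, with 2.82% of all tested genes called by the same rule. For Colgalt1 the interaction was 2.0 on the log2 scale (SE 0.67), with 3 of 3 BLM mice below Con and KOBLM overlapping KO, and the call held in all 12 fits that left out a library. For Plod3 it was 1.75 (SE 0.72), and the call was lost without BLM 1, BLM 2, Con 1, Con 2, KO 2, KO 3 or KOBLM 3 (1.60 to 1.79). For Lama1 it was 12.24 (SE 4.80, 6 of 12) and for Fbln2 -7.90 (SE 3.55, 4 of 12), and the size of both depends on the fit because BLM was at 0 for Lama1 and KOBLM was at 0 for Fbln2. The call of Lama1 was lost without BLM 1, BLM 2, BLM 3, Con 2, KO 2 or KO 3 (6.23 to 12.28), and that of Fbln2 held only without BLM 2, Con 3, KO 1 or KO 3 (-7.93 to -2.68 in the other fits). No member of the collagen and laminin set had an interaction p under 0.05. Fibroblast marker sums were lower in KOBLM than in BLM, and macrophage sums overlapped, at 861 to 7293 CPM in BLM and 7290 to 17964 CPM in KOBLM. Their part was not tested.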

How the results depend on the processing

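The members' counts of calls, 0 in each comparison, became 1 for KOBLM against KO (Col4a1) with DESeq2 size factors, library size alone, no filter, only the groups compared or DESeq2, 1 for the averaged bleomycin effect with no filter (Lama3) and 1 for the averaged genotype effect with the replicate block (Lama5, lower). Of all tested genes, these fits called 138 to 460 for KOBLM against KO, 920 for the averaged bleomycin effect and 219 for the averaged genotype effect. Lama3 was at 0 in every BLM and KOBLM mouse, so the direction of its call was fixed. With the 2 libraries per group with the most genes, an alternative chosen after seeing the data, the members' counts became 2, 2 and 3 for BLM against Con, KOBLM against KO and the averaged bleomycin effect. Of the 13841 genes tested in that fit, 1370, 579 and 1423 were called in the same comparisons. Leaving out 1 library gave 0 to 1, 0 to 2 and 0 to 3 members in these comparisons and 0 to 0 in the other 4, where the counts for the averaged bleomycin effect include Col4a3 and Lama3, whose direction the filter fixed. Over all tested genes, the same fits called 292 to 767 for BLM against Con, 105 to 402 for KOBLM against KO and 486 to 1009 for the averaged bleomycin effect. Lamb2, called without KO 1 in KOBLM against KO, also had a fixed direction, with the other KO mice at 0.

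With a library left out, all tested genes called were 292 to 767, 236 to 471, 88 to 446, 105 to 402, 486 to 1009, 361 to 694 and 332 to 672, in the order of the comparisons below. List genes called, by comparison, moved as follows. BLM against Con (5) became 0 at an adjusted p, 8 with DESeq2, 11 with the 2 libraries per group and 3 to 7 with a library left out. KOBLM against BLM (5) became 3 with the replicate block, 0 at an adjusted p, 8 with DESeq2 and 2 to 5 with a library left out. KO against Con (0) became 1 with only the groups compared, 2 with the 2 libraries per group and 0 to 3 with a library left out. KOBLM against KO (0) became 1 with no filter, 4 with DESeq2, 5 with the 2 libraries per group and 0 to 4. The averaged bleomycin effect (7) became 13 with no filter, 0 at an adjusted p, 12 with the 2 libraries per group and 4 to 11. The averaged genotype effect (3) became 5 with library size alone or no filter, 0 at an adjusted p, 6 with the 2 libraries per group and 2 to 6. The interaction (4) became 1 with the replicate block, 0 at an adjusted p and 1 to 7. Over all tested genes, and in the order given, DESeq2 called 947, 755 and 460 of 13054. The 2 libraries per group called 1370, 593, 579, 1423 and 853 of 13841. No filter called 257, 920 and 714 of 17480, and the replicate block 262 and 242 of 13054. Only the groups compared called 228 of 11190, and library size alone 446 of 13054.

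Members' log2 fold changes that changed sign were all uncalled. With the replicate block they were Col4a1 (-0.15) and Lama5 (-2.25) in BLM against Con, Lamb2 (0.24) and Lamc1 (1.0) in KOBLM against BLM, Lamb2 (-2.06) in KO against Con and Col4a4 (5.46) in KOBLM against KO. The block also turned Lama5 (-1.07) in the averaged bleomycin effect, Lamc1 (0.57) in the averaged genotype effect, and Col4a4 (1.63), Lama5 (2.36), Lamb2 (2.30) and Lamc1 (0.85) in the interaction. Lamc1 in KO against Con was -0.03 with library size alone, Col4a4 in the averaged bleomycin effect was -0.04 with DESeq2 or its size factors and -0.02 with no filter, and Col4a2 in the averaged genotype effect was 0.02 with DESeq2 or its size factors. With the 2 libraries per group, Col4a2 in KO against Con was -0.11 and Lamc1 in the averaged genotype effect was 0.06. The causes were not tested.

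With a library left out, the ranges that crossed or reached 0 were, for BLM against Con, Col4a1 -0.30 to 1.01, Col4a4 -0.94 to 7.23, Lama5 -1.83 to 1.70 and Lamb3 -7.00 to 5.31. For KOBLM against BLM they were Col4a1 -0.95 to 0.89, Col4a2 -1.42 to 0.38, Col4a4 -2.26 to 2.22, Lama5 -9.96 to 0.32, Lamb2 -2.05 to 0.08, Lamb3 -5.32 to 6.62 and Lamc1 -0.82 to 0.28. For KO against Con they were Col4a2 -0.19 to 0.47, Col4a4 -6.40 to 8.48, Lamb2 -7.57 to 0.98, Lamb3 -7.56 to 0.00 and Lamc1 -0.87 to 0.78. For KOBLM against KO they were Col4a4 -3.51 to 7.70, Lama5 -7.15 to 7.32 and Lamb3 0.00 to 7.18. For the averaged bleomycin effect they were Col4a4 -1.32 to 4.28, Lama5 -3.03 to 4.22 and Lamb3 -0.83 to 5.95. For the averaged genotype effect they were Col4a2 -0.59 to 0.30, Col4a4 -2.98 to 4.45, Lamb2 -4.13 to 0.23, Lamb3 -6.14 to 0.64 and Lamc1 -0.58 to 0.24. For the interaction they were Col4a2 -1.67 to 0.16, Col4a4 -8.06 to 6.83, Lama5 -8.24 to 6.21, Lamb2 -2.45 to 6.89 and Lamc1 -1.09 to 0.58.

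For the chain pairs, r with a library left out was 0.471 to 0.733 for Col4a1 with Col4a2, 0.34 to 0.726 for Col4a3 with Col4a4 and -0.147 to 0.618 for Lama3 with Lamb3, and a prior count of 0.5 gave 0.536, above a p of 0.05, for Col4a3 with Col4a4. Mice of a group varied with a coefficient of 1.44 (the square root of the common dispersion). For genes at or under 3 counts in most libraries, such as Col4a3 and Lama3, a fold can be given only as a bound.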
